A study of Mus musculus with 8 samples.

Results

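The aryl hydrocarbon receptor (AhR) gene Ahr and 5 known targets of the receptor were followed in mouse skin. Of these targets, 2 in turn restrain the receptor (Ahrr and Tiparp) and 3 are genes of enzymes it induces (Cyp1a1, Cyp1b1 and Nqo1). These 6 genes, each found by its symbol in every library, are 6 of the 55418 genes in the files. Cyp1a1 was picked because its level shifted in hairloss skin, so it was selected on its hairloss and wildtype levels, and its difference between the genotypes is a description with no test. The other 5 were added to show whether the pathway moved with it. In GENCODE M21 (mm10) the genes span chromosome 12 from 35497974 to 35535038 (Ahr), chromosome 13 from 74211118 to 74292331 (Ahrr), chromosome 3 from 65528410 to 65555518 (Tiparp), chromosome 9 from 57687928 to 57703824 (Cyp1a1), chromosome 17 from 79701537 to 79715061 (Cyp1b1) and chromosome 8 from 107388225 to 107403206 (Nqo1).

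The skin came from wildtype mice and from mice labelled Hairloss, which carry a spontaneous mutation that the labels do not name. It was collected at postnatal days 0, 16, 19 and 28, with 1 library for each genotype and age, so 8 libraries in all. The labels give no strain, sex, body site or number of animals per library, and no group was replicated. A difference between the genotypes at an age therefore describes 2 libraries and has no replicate error. Levels are in FPKM, fragments counted per length of transcript and per depth of library, so genes can be compared with each other. The spacing of the lowest values put the depth at 30900000 to 44700000 fragments per library.

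AhR is a transcription factor of the bHLH-PAS family that waits in the cytoplasm with the chaperone Hsp90 until a small molecule binds it. Its ligands include dioxins, polycyclic hydrocarbons, light products of tryptophan and compounds made by skin microbes. The bound receptor moves to the nucleus, pairs with Arnt and binds DNA elements with the core GCGTG, known as xenobiotic response elements (XRE). Cyp1a1 is a highly sensitive target and the usual readout. In skin the pathway is known for its part in keratinocyte differentiation and in chloracne, in which sebaceous glands are lost.

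The promoters of the 3 members with the highest ratio of hairloss to wildtype level at day 28 are shown, since XRE cores in them can be read directly. Each line gives the 250 bases before the RefSeq start on the gene's strand (build GRCm38.p6, the assembly also called mm10), with the XRE core in capitals, as GCGTG or, read from the other strand, CACGC.
Cyp1a1: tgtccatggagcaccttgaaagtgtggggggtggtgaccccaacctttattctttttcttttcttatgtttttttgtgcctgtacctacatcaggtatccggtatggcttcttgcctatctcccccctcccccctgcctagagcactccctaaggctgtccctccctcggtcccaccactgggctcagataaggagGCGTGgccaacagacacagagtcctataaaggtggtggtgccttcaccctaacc
Ahrr: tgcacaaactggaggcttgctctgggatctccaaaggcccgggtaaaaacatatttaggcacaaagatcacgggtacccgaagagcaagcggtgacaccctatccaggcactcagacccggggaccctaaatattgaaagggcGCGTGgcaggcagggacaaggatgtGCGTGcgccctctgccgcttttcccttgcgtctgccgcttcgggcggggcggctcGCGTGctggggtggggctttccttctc
Cyp1b1: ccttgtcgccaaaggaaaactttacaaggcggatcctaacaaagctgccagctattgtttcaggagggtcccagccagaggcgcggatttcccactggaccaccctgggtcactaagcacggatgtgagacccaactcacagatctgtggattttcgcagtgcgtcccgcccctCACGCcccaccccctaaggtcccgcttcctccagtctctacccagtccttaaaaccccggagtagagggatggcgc
They lie at chr9:57697363-57697612 on the plus strand for Cyp1a1, chr13:74292332-74292581 on the minus strand for Ahrr and chr17:79715062-79715311 on the minus strand for Cyp1b1. Ahrr holds 3 cores, at 107, 82 and 27 bases before the start, and the last of them matches the longer form TNGCGTG. Cyp1a1 holds 1 core at 54 bases and Cyp1b1 holds 1 on the other strand at 76 bases. The Tiparp window also holds 1 core, at 170 bases, and the Nqo1 window holds 0, as well as 0 matches to TGACNNNGC, the core of the antioxidant response element through which NRF2 acts. The core is common: 28.2% of 32851 RefSeq promoter windows of this length hold GCGTG on either strand, 4.1% hold TNGCGTG and 10.2% hold TGACNNNGC. The matches are letters in a window and not measured sites, and the known enhancer of Cyp1a1 lies further upstream. No promoter of Ahr was used here; 5 of the 6 members had an entry.

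Some features of whole libraries bear on what follows. Markers of sex (Ddx3y from the Y chromosome and Xist from the inactive X) matched between the genotypes at 1 of the 4 ages, day 16, and 2 libraries, wildtype days 0 and 19, held both. At day 28 the wildtype library carried Ddx3y at 16.5 FPKM and Xist at 0.166 FPKM, and the hairloss library was listed at 0 for Ddx3y with Xist at 50.2 FPKM. The part of sex in the results was not tested. Epidermal and hair markers differed between the genotypes as well, and their values stand beside the results below.

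At day 28 all 6 genes stood higher in hairloss than in wildtype skin, 5 of them by at least 2-fold, and for every member but Nqo1 this was the age of the widest gap. Cyp1a1, the P450 enzyme that clears many AhR ligands, measured 4.05 FPKM in the wildtype library against 308 FPKM in the hairloss library. Cyp1b1, a related P450, measured 10.9 against 79.5 FPKM, and Ahrr, which competes with the receptor for Arnt, 1.36 against 8.71 FPKM. Nqo1, a quinone reductase, measured 5.86 against 16.6 FPKM and Ahr itself 6.59 against 14.7 FPKM. Tiparp, an ADP-ribosylating enzyme that acts back on the receptor, came just short at 7.51 against 15.4 FPKM, a difference of 0.94 on the log2(FPKM + 1) scale. In bulk skin, more cells that express a gene and more RNA per cell cannot be told apart.

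Across all genes compared at day 28, 5.6% were at least 2-fold higher in the hairloss library on that scale (897 of 16021). Of the 5 members other than Cyp1a1, 4 were, with a median difference of 1.36 against 0.000291 for all genes. For Cyp1a1 the difference was 5.93, for Cyp1b1 2.76, for Ahrr 2.04, for Nqo1 1.36 and for Ahr 1.05. Ahr lay just inside the 2-fold limit and Tiparp just outside it. With a pseudocount of 5 in place of 1 the count of members fell from 5 to 3, since Ahr and Nqo1 dropped under the limit, and with libraries scaled without keratins Tiparp passed it at 1.06.

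**Figure D1:**
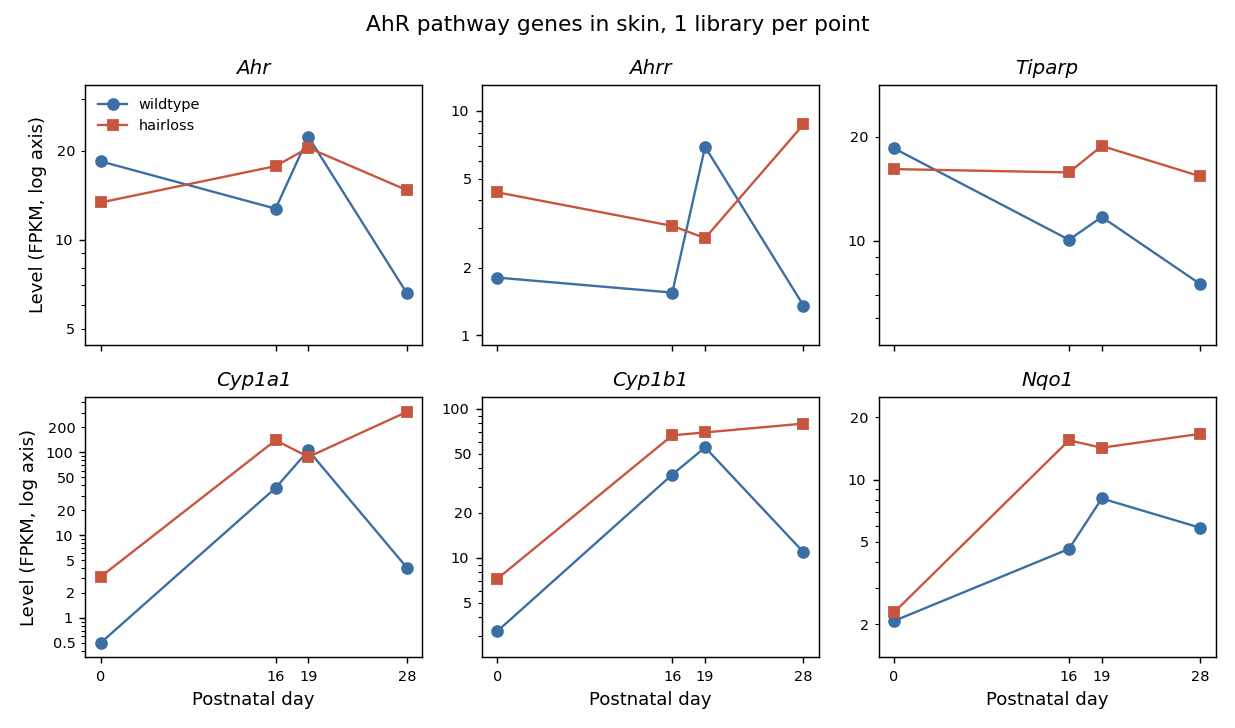
Level of each of the 6 genes in FPKM (log axis, its range set per gene) against postnatal day, with 1 library per point, wildtype as circles and hairloss as squares. In wildtype skin all 6 are lower at day 28 than at day 19, and at day 28 every hairloss point lies above the wildtype point.

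The receptor gene varied little over the hairloss libraries. From day 0 through days 16, 19 and 28, Ahr measured 13.4, 17.8, 20.5 and 14.7 FPKM in the hairloss libraries and 18.4, 12.7, 22.3 and 6.59 FPKM in the wildtype libraries. Its highest level in each genotype was at day 19. The hairloss libraries all lay between wildtype levels, so the genotypes overlapped, and hairloss was the higher at 2 of 4 ages. The highest level was 1.53 times the lowest in hairloss and 3.39 times the lowest in wildtype skin, where day 28 stood apart.

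Of the repressors, Ahrr was lower in hairloss skin at day 19 and higher at the other ages, and Tiparp was the steadier. In the same order of days, Ahrr measured 1.81, 1.55, 6.92 and 1.36 FPKM in the wildtype libraries and 4.34, 3.07, 2.71 and 8.71 FPKM in the hairloss libraries. The difference at day 19 was -1.09 on the log2(FPKM + 1) scale, where 5.76% of all genes were at least 2-fold lower. With a pseudocount of 5 it was -0.63, under 2-fold. Tiparp measured 18.5, 10.1, 11.7 and 7.51 FPKM in the wildtype libraries and 16.1, 15.8, 18.8 and 15.4 FPKM in the hairloss libraries. Its hairloss levels spanned 1.22 times from lowest to highest, the narrowest range among the 6 genes, against 2.46 times in wildtype.

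The P450 genes had the widest ranges. Cyp1a1 measured 0.499, 37.2, 105 and 4.05 FPKM in the wildtype libraries and 3.14, 139.9, 88.0 and 308 FPKM in the hairloss libraries. Wildtype skin was highest at day 19 and low again at day 28, a range of 211 times from lowest to highest, while hairloss skin was highest at day 28. The lowest value rests on about 48 fragments, taking the longest transcript, which gives a 95% Poisson interval of 0.37 to 0.665 FPKM that covers counting error only. At day 0 the difference of Cyp1a1 was 1.46 and at day 16 it was 1.88. At day 19 the order was the other way, with a difference of -0.26, within 2-fold.

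Cyp1b1 followed a like course at a flatter slope. It measured 3.23, 36.2, 55.1 and 10.9 FPKM in the wildtype libraries and 7.24, 66.3, 69.4 and 79.5 FPKM in the hairloss libraries, and hairloss was the higher at 4 of 4 ages. The hairloss levels of days 16, 19 and 28 all lay above the highest wildtype level. Nqo1 measured 2.08, 4.63, 8.11 and 5.86 FPKM in the wildtype libraries and 2.29, 15.5, 14.2 and 16.6 FPKM in the hairloss libraries. It too was the higher at 4 of 4 ages, and its hairloss levels from day 16 on exceeded every wildtype level.

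At the earlier ages fewer members passed 2-fold. At day 16, 1 of the 5 members other than Cyp1a1 was at least 2-fold higher in hairloss skin, Nqo1, where 5.34% of all genes were. Cyp1a1, picked for its shift, was so as well. All 6 lay above their wildtype level at that age, the median without Cyp1a1 being 0.68 against -0.08 for all genes. At day 0, 0 of the 5 passed, where 1.49% of all genes did, with Cyp1b1 at 0.96 and Ahrr at 0.93, and with a pseudocount of 0.1 those 2 passed as well. With a pseudocount of 5 none of the 6 passed at day 0. The spread of protein-coding genes was narrowest at that age: 99.5% of those compared lay below Cyp1b1 and 99.4% below Ahrr. At day 19 0 members were at least 2-fold higher, where 6.53% of all genes were, and 3 lay above their wildtype level.

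**Figure D2:**
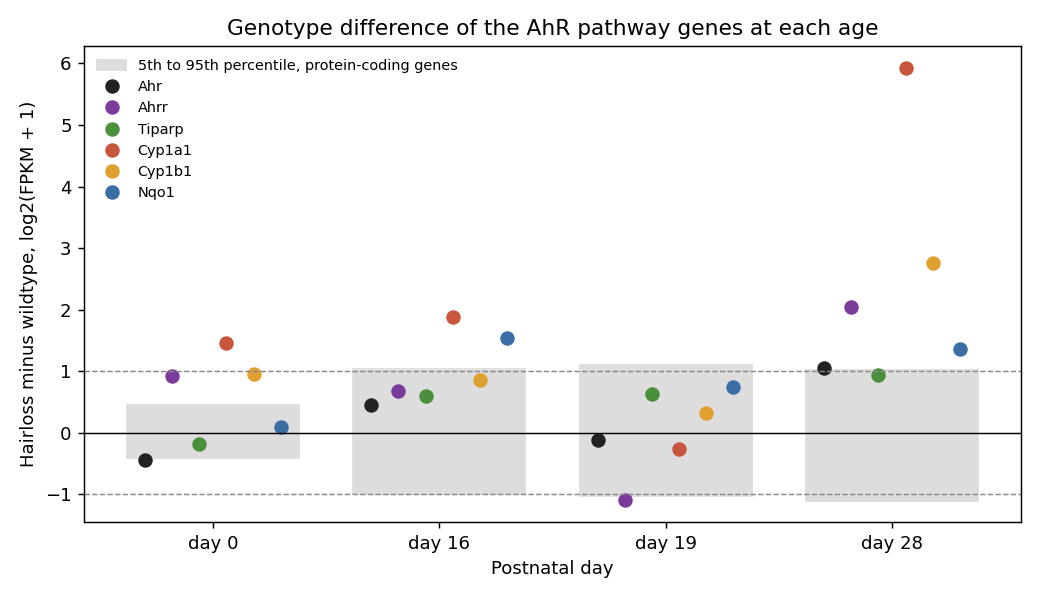
Hairloss minus wildtype on the log2(FPKM + 1) scale for each gene at each age; grey boxes span the 5th to the 95th percentile of protein-coding genes, and dashed lines mark 2-fold. At day 28 Cyp1a1 stands at 5.93 and 4 of the other 5 genes above 2-fold, while at day 19 the genes lie on both sides of 0.

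The 4 ages taken as pairs gave a test of the genotype difference for the 5 members other than Cyp1a1, and none passed it. In this limma fit, age was a block and the spread is that of the difference over ages. The difference was 0.94 ± 0.26 (SE, 4 ages) for Nqo1, with a limma adjusted p of 0.331. It was 1.23 ± 0.41 for Cyp1b1, with a limma adjusted p of 0.349, and 0.50 ± 0.20 for Tiparp, with 0.376. For Ahrr it was 0.64 ± 0.50 with a limma adjusted p of 0.576, and for Ahr 0.24 ± 0.26 with 0.676. Only 0.0374% of 18724 genes passed (7 genes). Unadjusted, limma gave 0.0147 for Nqo1 and 0.0295 for Cyp1b1, where 13.4% of all genes lay under 0.05; the other 3 did not. Leaving out 1 age moved several of these values by over 1.5 times. The difference of Ahrr was 0.17 without day 28 and 1.215 without day 19, and that of Cyp1b1 was 0.72 without day 28 (limma adjusted p over their alternatives 0.416 to 0.885 and 0.322 to 0.811). With a pseudocount of 5 that of Ahrr was 0.31. For Ahr it was 0.46 without day 0, and without day 28 it turned to -0.035 (limma adjusted p = 0.956, range over the alternatives of Ahr 0.519 to 0.956).

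From day 0 to day 16, 1 of the 6 members passed the test, Cyp1b1. This step uses libraries that also enter the genotype difference on which Cyp1a1 was picked. Cyp1b1 rose by 3.08 ± 0.58 (SE, 2 libraries per age, genotype as block; limma adjusted p = 0.0455), where 8.0% of genes passed in either direction and 3.58% were higher. The call was lost with a pseudocount of 5, with libraries scaled without keratins, and with no filter on low values, the limma adjusted p over all alternatives spanning 0.039 to 0.0687. Cyp1a1 differed by 4.88 ± 1.60 with a limma adjusted p of 0.128 and Nqo1 by 1.60 ± 0.37 with 0.0587, so neither passed. Ahr differed by -0.06 ± 0.37, Ahrr by -0.26 ± 0.71 and Tiparp by -0.42 ± 0.28, with limma adjusted p of 0.929, 0.818 and 0.334. Of the 15 marker lists, 5 summed higher at day 16 than at day 0 in both genotypes and 7 lower. Sebaceous gland markers summed to 7.81 and then 122 FPKM in wildtype and to 7.02 and then 189 FPKM in hairloss skin. Hair shaft markers went from 7.49 to 3272 FPKM and from 2.57 to 729 FPKM, and Langerhans cell markers from 48.3 to 491 FPKM and from 52.0 to 788 FPKM. T cell markers went from 1.39 to 15.7 FPKM and from 0.754 to 10.02 FPKM, and basal keratinocyte markers from 1101 to 2552 FPKM and from 1396 to 7052 FPKM. The part of these cells in the step was not tested.

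Between day 19 and day 28 Cyp1a1 and Ahrr differed in opposite directions in the genotypes. In wildtype skin, where the first hair cycle normally gives way to the next growth phase, 4 of the 6 genes were at least 2-fold lower at day 28: Ahr, Ahrr, Cyp1a1 and Cyp1b1. In all, 8.78% of genes were so in that comparison. The differences were -1.62 for Ahr, -1.75 for Ahrr, -4.39 for Cyp1a1 and -2.23 for Cyp1b1. In hairloss skin 2 members were 2-fold higher, Cyp1a1 by 1.80 and Ahrr by 1.39, where 3.75% of genes were. There Ahr differed by -0.45 and Cyp1b1 by 0.19, within 2-fold. These comparisons use the same day 28 libraries as the genotype comparison of that age and are no second evidence for it. With both genotypes in 1 limma fit no gene of 18724 passed for this step (0.0%, against 1910 at an unadjusted p under 0.05), and Ahr came nearest among the members at -1.04 ± 0.37 (limma adjusted p = 0.468). Ahr was also the only member under 0.05 unadjusted, at 0.0341. For day 16 to 19 the limma fit called 3 genes (0.016%) and no member, with no member under 0.05 unadjusted. In wildtype skin Ahrr and Cyp1a1 were 2-fold higher at day 19 than at day 16, where 6.41% of genes were. In hairloss skin Ahrr differed by -0.13 and Cyp1a1 by -0.66 in that step, both within 2-fold.

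The gene with the profile nearest to Cyp1a1 was Aldh3a1, an aldehyde dehydrogenase that is itself on the list of further AhR targets. Nearness was the mean absolute distance between log2(FPKM + 1) profiles over the 8 libraries, each centred on its own mean, among 14307 other protein-coding genes. Aldh3a1 lay at 0.63, where a flat profile would lie at 2.40. In order of age it measured 0.551, 32.7, 67.4 and 11.1 FPKM in the wildtype libraries and 0.694, 69.1, 55.3 and 130.4 FPKM in the hairloss libraries. Next came Fcgbp at 0.75, Ccn5 at 0.95, Fa2h at 0.96 and Cd74 at 0.98. Fa2h, a fatty acid hydroxylase, is on the sebaceous gland list and Cd74, the MHC class II invariant chain, on the Langerhans cell list. Of the members, Cyp1b1 ranked 8 at 0.99, Nqo1 ranked 140 at 1.69, and Ahrr, Ahr and Tiparp ranked 1297, 1631 and 5272. The 8 libraries share their ages, so a gene that changes with age alone comes near as well. The distance also uses the hairloss and wildtype levels on which Cyp1a1 was picked, so genes with a like genotype shift come near. The nearness of another AhR target is therefore a description and no second evidence for the pathway.

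**Figure D3:**
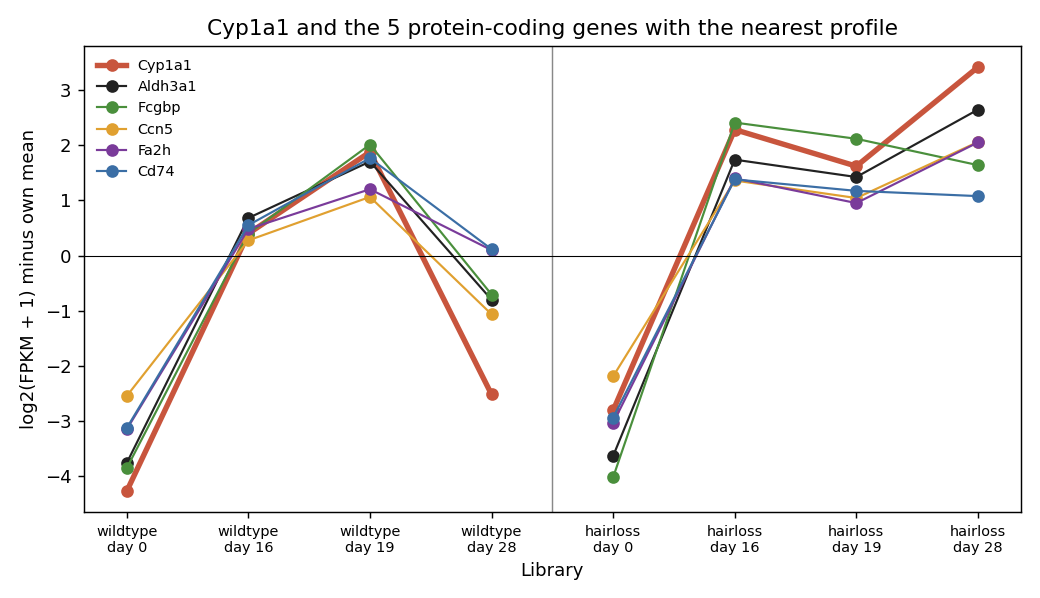
Profiles of Cyp1a1 and the 5 nearest protein-coding genes over the 8 libraries, as log2(FPKM + 1) minus each gene's own mean; lines join libraries of 1 genotype. Cyp1a1 and Aldh3a1 share a low wildtype level at day 28 and their highest level in the hairloss library of day 28.

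Beyond Aldh3a1 the list of further AhR targets was mixed. Of 10 listed genes 9 reached 1 FPKM in some library, and Cyp1a2, the liver relative of Cyp1a1, did not, its highest level being 0.0976 FPKM. At day 28, 2 of 9 passed 2-fold, both of them higher, where 5.6% of all genes were, and the list's median was 0.26. They were Aldh3a1 and Serpinb2, a keratinocyte protease inhibitor. Serpinb2 measured 22.4 against 57.8 FPKM at that age (wildtype against hairloss, as in all pairs that follow). At day 16, 3 of 8 were higher and 1 lower, against 5.34% and 7.39% of all genes, and at day 19, 2 of 9 were higher and 2 lower, against 6.53% and 5.76%. Gsta2, a glutathione transferase, was the lower one at day 16, at 3.27 against 0.536 FPKM, and again at day 19, at 6.87 against 0.705 FPKM, although it shares near-identical sequence with Gsta1. Nfe2l2, which encodes NRF2, measured 24.2 against 51.8 FPKM at day 16 and 26.4 against 43.8 FPKM at day 28. None of the 9 passed the limma genotype fit (4 at an unadjusted p under 0.05, where 13.4% of all genes were). From day 0 to 16, 1 of the 9 passed, where 8.0% of all genes did and 3.58% were higher. It was Scin, which rose by 2.60 ± 0.25 (SE, limma adjusted p = 0.0211).

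The receptor's partners lay close to their wildtype levels. Arnt, the obligate partner, stood between 17.3 and 27.0 FPKM in wildtype and between 18.1 and 22.9 FPKM in hairloss skin, with no age past 2-fold. The list of partners and chaperones held 10 measured genes. At day 28, 1 of 9 was at least 2-fold higher, Epas1 at 8.07 against 19.01 FPKM, where 5.6% of all genes were. At day 19 it was also 1 of 9, Hif1a at 22.9 against 54.1 FPKM, where 6.53% of all genes were. At any age 0 were 2-fold lower. Epas1 and Hif1a both encode oxygen-responsive factors that also pair with Arnt. The coactivator genes Ncoa1 and Ncoa2 measured 16.5 against 12.2 FPKM and 19.1 against 13.7 FPKM at day 28, within 2-fold. The listed enzymes of tryptophan metabolism, only some of which make AhR ligands, were scarce. In all, 4 of 8 reached 1 FPKM, and Ido1 stayed at or under 0.0933 FPKM. On the log2(FPKM + 1) scale 0 of the 1, 2, 4 and 2 genes compared at days 0, 16, 19 and 28 passed 2-fold. Of all genes, 1.49%, 5.34%, 6.53% and 5.6% were at least 2-fold higher at these ages. At levels this low the added 1 shrinks a ratio, so the 0 does not show that these genes were alike. Il4i1, an amino acid oxidase, measured 0.817 against 2.23 FPKM at day 16. At day 19 Kmo measured 1.74 against 0.628 FPKM, Kynu 1.196 against 0.717 FPKM and Afmid 1.97 against 1.45 FPKM.

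Lists of neighbouring pathways were set beside the members. Nqo1 is also a target of NRF2. Of 12 other NRF2 targets none was 2-fold higher at day 28 and 1 was lower, against 5.6% and 6.42% of all genes. The list's median was -0.60. Gsta4 came just short of 2-fold higher, at 3.27 against 7.54 FPKM and a difference of 0.999. The lower one was Gclc, which makes glutathione, at 22.6 against 8.45 FPKM. Osgin1 measured 4.18 against 2.17 FPKM at that age. At day 19, 3 of 12 were higher and 1 was lower, against 6.53% and 5.76% of all genes. Among the higher were the cystine transporter gene Slc7a11 at 0.175 against 7.63 FPKM and Gsta4 at 3.82 against 22.1 FPKM. Of 10 targets of the hypoxia factors, which share Arnt with AhR, 5, 5 and 3 were at least 2-fold higher at days 16, 19 and 28. The shares of all genes were 5.34%, 6.53% and 5.6%. The list's medians were 0.92, 0.89 and 0.67, against -0.08, -0.00176 and 0.000291 for all genes. Egln3, an oxygen sensor, measured 5.92 against 66.3 FPKM and the glucose transporter gene Slc2a1 5.70 against 43.6 FPKM at day 19, when Cyp1a1 was no higher in hairloss skin. Pgk1, of glycolysis, measured 72.4 against 156 FPKM at that age, and Ankrd37 1.62 against 6.98 FPKM. No gene of the partner, tryptophan, NRF2 and hypoxia lists passed the limma fits for genotype or age, the lowest adjusted p being 0.0587 for an age step. Unadjusted, the genotype fit put 3 of 10 partners, 1 of 4 tryptophan enzymes, 1 of 12 NRF2 targets and 7 of 10 hypoxia targets under 0.05, where 13.4% of all genes were.

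**Figure D4:**
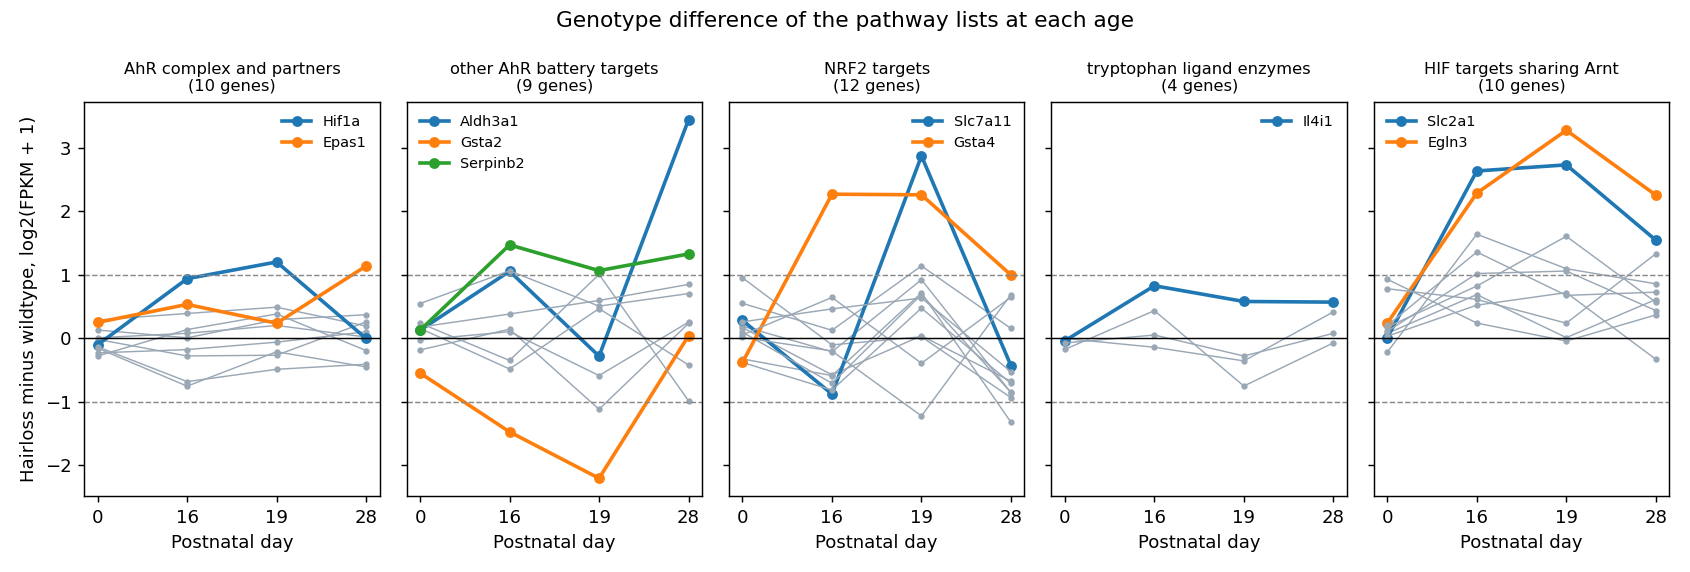
Hairloss minus wildtype on the log2(FPKM + 1) scale at each age for every measured gene of the 5 pathway lists. Some of the named genes are in colour, the other genes are in grey, and dashed lines mark 2-fold. Aldh3a1 reaches 3.45 at day 28, while Slc2a1 and Egln3 are highest at day 19.

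Markers of skin cell types were set beside Cyp1a1, since the tissue is a mixture. The 6 suprabasal keratinocyte markers summed to 923 against 8088 FPKM at day 28, 8.77 times as much, with 3 of 6 at least 2-fold higher. Their sums spanned 923 to 6254 FPKM over wildtype and 4991 to 8678 FPKM over hairloss libraries, and none was at 0. At day 19 they summed to 3.502 times as much in hairloss skin, when Cyp1a1 stood at 0.835 times its wildtype level. The list was split at that age, with 2 of 6 markers at least 2-fold higher and 1 at least 2-fold lower. The sums of the 6 sebaceous gland markers had hairloss to wildtype ratios of 0.899, 1.55, 0.654 and 2.19 at days 0, 16, 19 and 28, and those of the 5 Langerhans cell markers 1.08, 1.61, 0.672 and 1.59. The ratios of Cyp1a1 were 6.28, 3.77, 0.835 and 75.9. Those of mast cell markers were 1.13, 2.54, 0.779 and 4.06, and those of endothelial markers 1.22, 1.18, 0.652 and 1.86. The Langerhans, mast cell and endothelial sums thus lay on the same side of 1 as Cyp1a1 at each age, which no other list did. Neutrophil markers summed to 1.12 against 24.8 FPKM at day 16, 22.2 times as much. The 6 sebaceous markers spanned 7.81 to 194 FPKM in wildtype and 7.02 to 265 FPKM in hairloss libraries, none at 0. The Langerhans markers spanned 48.3 to 911 FPKM in wildtype and 52.0 to 788 FPKM in hairloss libraries, with 1 of 5 at 0 in the wildtype library of day 0. At day 16, 1 of the 6 sebaceous markers was at least 2-fold higher and 2 were at least 2-fold lower, and at day 19, 1 was higher and 1 lower. Of the 5 Langerhans markers 0 passed 2-fold at day 16, and at day 19, 1 was higher and 2 lower. At day 28, 2 of the sebaceous markers were at least 2-fold higher and 1 was lower, and 1 of the Langerhans markers was higher. Other lists differed as much or more at that age: 6 of 6 skeletal muscle markers were at least 2-fold higher (their sum 2.21 times the wildtype sum), as were 4 of 5 mast cell markers (4.06 times), 3 of 5 basal keratinocyte markers (2.204 times) and 1 of 5 neutrophil markers (5.23 times, both sums under 5 FPKM). All 5 melanocyte markers were at least 2-fold lower, at 0.297 times. The part of these cells in the result was not tested. For hair shaft markers the order of the genotypes was opposite to that of Cyp1a1 at each age. In order of age they summed to 7.49, 3272, 14.2 and 2820 FPKM in wildtype libraries. In hairloss libraries they summed to 2.57, 729, 270 and 0.602 FPKM, with 1 of 6 at 0 at day 28. At day 19, 6 of 6 were at least 2-fold higher in hairloss skin, and at days 16 and 28, 6 of 6 were at least 2-fold lower. At day 0, 0 of 6 passed 2-fold. The part of hair growth in the result was not tested. Markers of liver summed to 5.04 FPKM or less in every library.

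**Figure D5:**
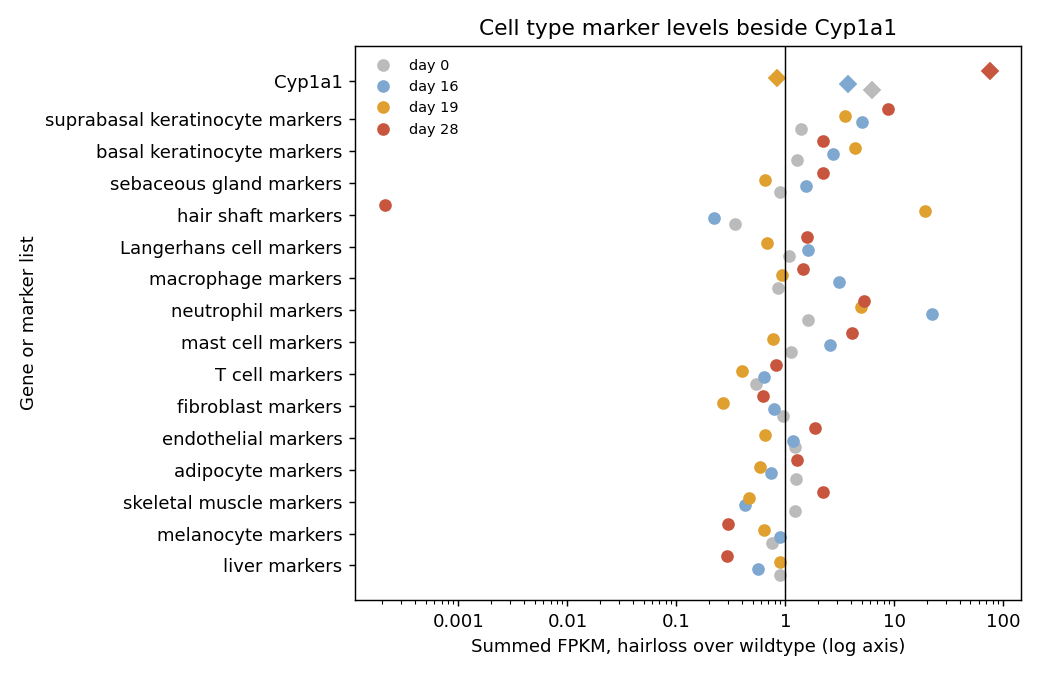
Ratio of hairloss to wildtype summed FPKM (log axis) of each cell type marker list at each age, with the ratio of Cyp1a1 as diamonds in the top row. At day 28 Cyp1a1 stands at 75.9, above every marker list, and the suprabasal list at 8.77.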

How the data were processed

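Skin RNA was measured in 8 libraries, 1 per genotype and age, grouped by the sample titles. Per the labels' protocols, RNeasy kits gave the RNA and TruSeq kits the libraries. Cutadapt, Cuffdiff and build mm10 are named per the submitters' processing notes; the sources used here do not give aligner, annotation or strand setting. Per the deposited tables, the authors gave 1 value per Ensembl gene without a stated unit, taken as FPKM from the values and from Cuffdiff. Scaling between libraries is unstated. The files hold no counts. The files name 21795 genes; GENCODE M21 named 33471 others.

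Depth was estimated from genes of 1 transcript over 1000 bases, as the depth at which most carry the value of 1 fragment. Differences were taken on log2(FPKM + 1), which understates the change of low genes. At an age a gene was called past 2-fold if 1 library had at least 1 FPKM, with no test. Over ages and for age steps, limma 3.58.1 (R 4.3.3; eBayes with trend and robust, two-sided, Benjamini-Hochberg, threshold 0.05) was fitted to the 18724 genes reaching 1 FPKM in any library, with age and genotype as factors and 3 residual degrees of freedom; labels do not say that libraries are separate animals. The fits were tested on simulated data. Promoters are from RefSeq (GRCm38.p6). The 6 members, the 5 pathway lists and the 15 marker lists were chosen with earlier results of these data known. Named were the members, up to 4 genes per pathway list with the largest mean absolute difference, and the 5 genes nearest to Cyp1a1; Cyp1a2, Arnt, Ido1, Scin and the markers of sex were added after their values were seen. Alternatives were other pseudocounts (0.1 and 5), scaling, filters and left-out ages. Other computations used Python 3.11.15.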

Additional observations from a re-analysis of the deposited data

Results flagged for a closer look

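Ahrr and Cyp1a1 were lower at day 28 than at day 19 in wildtype skin and higher in hairloss skin. On the log2(FPKM + 1) scale Cyp1a1 differed by -4.39 in wildtype and by 1.8 in hairloss skin, and Ahrr by -1.75 in wildtype and by 1.39 in hairloss skin. For Ahrr the order of the genotypes also differed between ages, with hairloss minus wildtype at -1.09 at day 19 and at 2.04 at day 28. Each value compares 2 libraries, and whether the difference between days 19 and 28 depends on genotype was not tested.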

How the results depend on the processing

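Counts of members past 2-fold depended mainly on the pseudocount. With a pseudocount of 0.1, 3 members were higher at day 0 in place of 1. With a pseudocount of 5, 0 were higher at day 0, 3 at day 28 in place of 5, and 0 lower at day 19 in place of 1. Of the differences of a member at an age, 112 kept their direction and their side of 2-fold, 4 dropped under it and 4 passed it, and none reversed. The 112 include the setting with no minimum level, which cannot change a difference. They also include median-ratio scaling, whose factors of 0.992 to 1.012 could hardly change one.

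The genotype fit called 7 genes in all, against 3 with a pseudocount of 5, 2 with no filter on low values and 0 among protein-coding genes only (2051 at an unadjusted p under 0.05); leaving out each age in turn gave 1 to 5 genes, 1 without day 28 and 2 without day 16. None of the 5 members other than Cyp1a1 passed in any of these fits; the difference of Ahr spanned -0.035 (without day 28, a reversal) to 0.46 (without day 0). For day 0 to 16 the fit called 1497 genes, or 456 with no filter; with libraries scaled without keratins 582 were higher and 1654 lower, in place of 670 and 827, and the median of all genes was -0.23 in place of -0.05. In that fit Cyp1b1 stood 2.89 higher. For day 16 to 19 it called 3 genes, or 1 with a pseudocount of 5, 1 with no filter and 0 among protein-coding genes only, where 745 lay under 0.05 unadjusted, and for day 19 to 28 0, or 5 with a pseudocount of 0.1. Nqo1 passed for day 0 to 16 with a pseudocount of 0.1 (limma adjusted p = 0.049; range over its alternatives 0.049 to 0.0915). Median-ratio scaling, added after the data were seen, moved none of these counts by over 1.5 times. The cause of these changes was not tested. The genotype fits pair the libraries by age; the labels give no replicate numbers, so no other pairing was fitted. Values at an age have no replicate error, and depth limits the lowest levels, such as that of Cyp1a1 in wildtype skin at day 0.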
